A study of Rattus norvegicus with 12 samples.

Results

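Cell cycle and DNA replication genes were followed in cultured INS-1 cells, which come from a rat insulin-secreting tumour and stand in for β-cells. The members were found by gene symbol, as the cyclins A, B, D, E, F and G, the kinases Cdk1, Cdk2, Cdk4, Cdk6 and Cdk7, the Cdkn and Cdc genes, the Mcm, Orc, Gins, Rfc, Pol and Prim families of replication, the E2f, Rb and Rbl genes, the Cenp, Bub, Mad2l, Aurk and Plk genes of mitosis, and Pcna, Top2, Mki67, Rrm, Tyms, Wee1, Chek, Cdt1, Gmnn and Nde1. Names starting with Cdc42 or Cdc37 were left out. The rule found 105 of the 9694 genes in the deposited table, and no measured value was used to choose them. Levels are in FPKM, sequenced fragments scaled to gene length and to the mapped total of a library, and 104 of the members, like 8795 genes in all, averaged 1 FPKM or more over the groups. Prima1 was the member below 1 FPKM, and 5 members that the symbols brought in have known roles outside the cell cycle (Cdc123, Cdc5l, Cdkn2aip, Cdkn2aipnl and Prima1). Mcm3ap, an export factor gene named after MCM3, was kept with the licensing genes by its symbol.

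The study sequenced RNA of 4 groups, with 3 libraries a group and 12 in all. The groups were CCIB, with a cytokine cocktail and I-BET762, CCVC, with the cocktail and vehicle, IB, with I-BET762 alone, and VC, with vehicle alone. I-BET762, called I-BET below, occupies the bromodomains with which BET proteins bind acetylated histones. It was given at 500 nM for 48 h before the cocktail, and per the paper I-BET or vehicle stayed on during the cytokines. In the cocktail IL-1β stood at 10, TNF-α at 25 and IFN-γ at 100 ng/mL. The treatment protocol gives 8 h of cytokines, as do the results of the paper for the sequenced cells. The deposited design text instead places the cytokines in the last 24 h of 72 h. All groups are 1 clonal tumour line that divides in culture, so a change in the share of cells in a phase and a change in RNA per cell cannot be told apart in these bulk samples.

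The deposited table holds 1 mean FPKM per group and no library values, so its levels carry no error and no depth, and no test between groups was run. It lists only genes that the authors had called at an adjusted p under 0.05 across the groups, and a cell cycle gene with no row was not analysed here. Ratios are log2 ratios of (FPKM + 1), which understate the fold of low genes, and higher or lower in a count means a difference of at least 1.5-fold, or 0.58 on the log2 scale. Of 12 β-cell markers, 10 had a row and all 10 were above 1 FPKM, among them Ins1 (20738 FPKM in CCIB, 10243 in CCVC, 26722 in IB and 11528 in VC) and Pdx1 (114 FPKM in CCIB, 63.6 in CCVC, 248 in IB and 156 in VC). Not all were higher with I-BET, since Nkx2-2 was at 12.4 FPKM in CCIB, 27.7 in CCVC, 39.6 in IB and 55.4 in VC, Nkx6-1 at 8.09 FPKM in CCIB, 8.43 in CCVC, 31.8 in IB and 34.3 in VC and Slc2a2 at 207 FPKM in CCIB, 281 in CCVC, 435 in IB and 251 in VC. Of 6 acinar and ductal, 6 mesenchymal and endothelial and 5 leucocyte markers, Sox9 and Vim had a row, at 0.104 to 0.590 FPKM for Sox9 and 0.588 to 1.62 FPKM for Vim.

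Progress through the cell cycle is driven by cyclins bound to cyclin-dependent kinases (CDKs), held back by CDK inhibitors. In G1, cyclin D with CDK4 or CDK6 and cyclin E with CDK2 phosphorylate the pocket proteins of the Rb family, which frees E2F factors to switch on genes of DNA replication. Origins are licensed by ORC, CDC6, CDT1 and the MCM helicase, fired with CDC45 and GINS, and copied by the replicative polymerases, and cyclin B with CDK1, the aurora and polo kinases and the kinetochore then carry the cell through mitosis. Adult β-cells rarely divide, whereas insulinoma lines cycle, and cyclin D2 and CDK4 are known as the main G1 drivers of rodent β-cells.

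In these means the cell cycle genes were mostly at their highest in VC and at their lowest in CCIB. VC was the highest of the 4 groups for 64 of the 104 members, against 27.9% of all 8795 genes, and CCIB was the lowest for 55 members, against 30.7% of all genes. CCIB was the highest for 8 members, CCVC for 17 and IB for 15, and VC was the lowest for 5. Summed over the 104 members, the level was 2946 FPKM in CCIB, 3464 in CCVC, 3363 in IB and 3970 in VC. The median member was at 16.5 FPKM in CCIB, 18.6 in CCVC, 18.9 in IB and 22.4 in VC. Mki67, which encodes the proliferation marker Ki-67, was at 35.04 FPKM in CCIB, 41.8 in CCVC, 34.1 in IB and 51.6 in VC, so that VC was the highest group and both I-BET groups lay close together below it.

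With I-BET alone, most members were slightly lower and few reached 1.5-fold. Cyclin D1, cyclin G1, cyclin A2, the CDK inhibitor gene Cdkn1a and the replication factor genes Cdc45 and Rfc3 were among the 12 members lower in IB than in VC, and E2f5, Rrm2b, Pole4 and Plk2 were the 4 that were higher. Over all 8795 genes, 10.5% were lower and 4.96% higher by this criterion, so the share of members past 1.5-fold (11.5% lower and 3.85% higher) was near the background. Ccna2, Cdc45 and Rfc3 no longer reached it with ratios centred on the median of all genes, scaled to 1 upper quartile or centred by gene length, which left 9 lower. Of all 8795 genes, 821 to 829 were lower in these settings. The small differences were less evenly spread, since 82 of 104 members (78.8%) were lower by any amount, against 54.3% of all genes. The median log2 ratio was -0.30 for members and -0.04 for all genes, and the middle 50% of members lay between -0.44 and -0.10. The lower median was seen in members of at least 20 FPKM (-0.32, 51 genes, against a median near 0 over 4022 genes at that level) and under 20 FPKM (-0.28, 53 genes, against -0.10 over 4773). Just past the criterion lay Rfc3 (-0.59) and Cdc45 (-0.61), and just short of it Mki67 (-0.58) and Plk1 (-0.58).

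**Figure D1:**
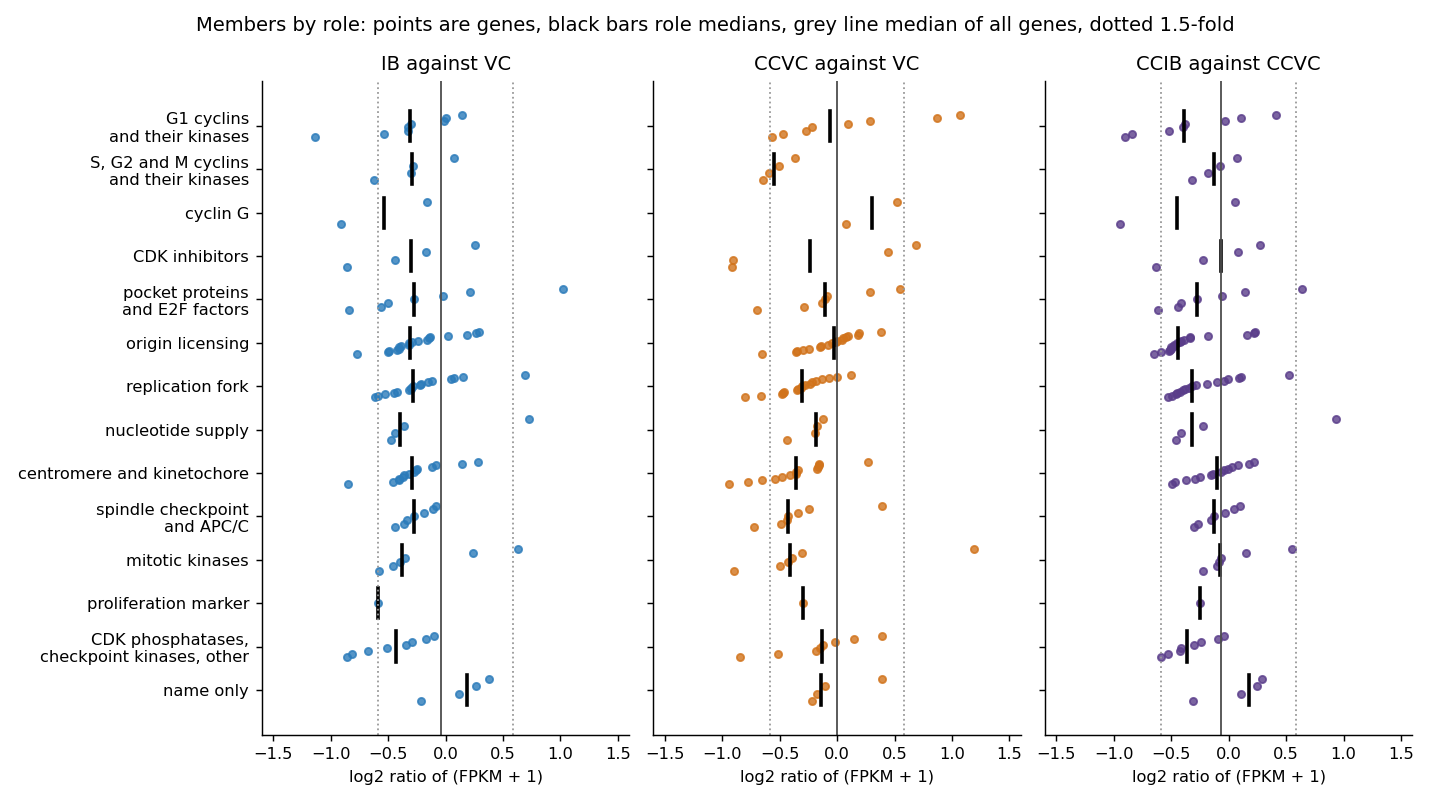
Log2 ratios of (FPKM + 1) for the 104 members, by role, in IB against VC, CCVC against VC and CCIB against CCVC; each point is 1 gene, the black bar is the median of the role, the grey line the median of all 8795 genes and the dotted lines mark 1.5-fold. Medians of the replication roles lie left of the grey line with I-BET in both settings, whereas those of mitotic kinases and kinetochore genes lie near it in CCIB against CCVC.

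With cytokines alone, the members past 1.5-fold were mostly lower, and those higher were G1 regulators and Plk2. In CCVC against VC, 14 members were lower, among them Cdk1, Cdc45, Gins1, Gmnn, E2f1, Cdkn3 and Cdkn2c, and 4 were higher, namely Ccnd1, Cdk6, Cdkn1a and Plk2. The background was 10.2% lower and 13.9% higher over all genes, against 13.5% and 3.85% of members, so the lower share was near the background and the higher share under it. By any amount, 80 of 104 members (76.9%) were lower, against 50.3% of all genes, and the median log2 ratio was -0.22 against -0.01 over all genes. Cdk1 (-0.59) lay just inside the criterion, and Cdk2 (-0.57) and Rb1 (0.55) just outside it.

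Gene length moved with the cytokine comparisons over the whole table. The median log2 ratio of all genes in CCVC against VC was -0.23 for genes of up to 1300 bases, -0.08 from there to 2000 bases, 0.07 up to 3000 bases and 0.13 above that. In IB against VC it stayed between -0.05 and -0.03 over the same classes. Members followed the slope, with medians of -0.42, -0.24, -0.13 and -0.13, and the members lower in CCVC numbered 6 of 21, 4 of 28, 4 of 28 and 0 of 27 from the shortest class to the longest. Of all genes, 322 of 1858, 223 of 2140, 181 of 2150 and 174 of 2647 were lower in the same classes. With ratios set against the median of their own length class, an alternative chosen after the data were seen, 11 members were lower and 4 higher in CCVC, and the median member was at -0.20. Of all 8795 genes, 801 were lower and 1224 higher by these ratios. Ccna1, Cdk1, Cenph, Gins1 and Gmnn no longer reached the criterion, while Bub1b and Cdk2 did. The part that gene length plays in these differences was not tested.

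**Figure D2:**
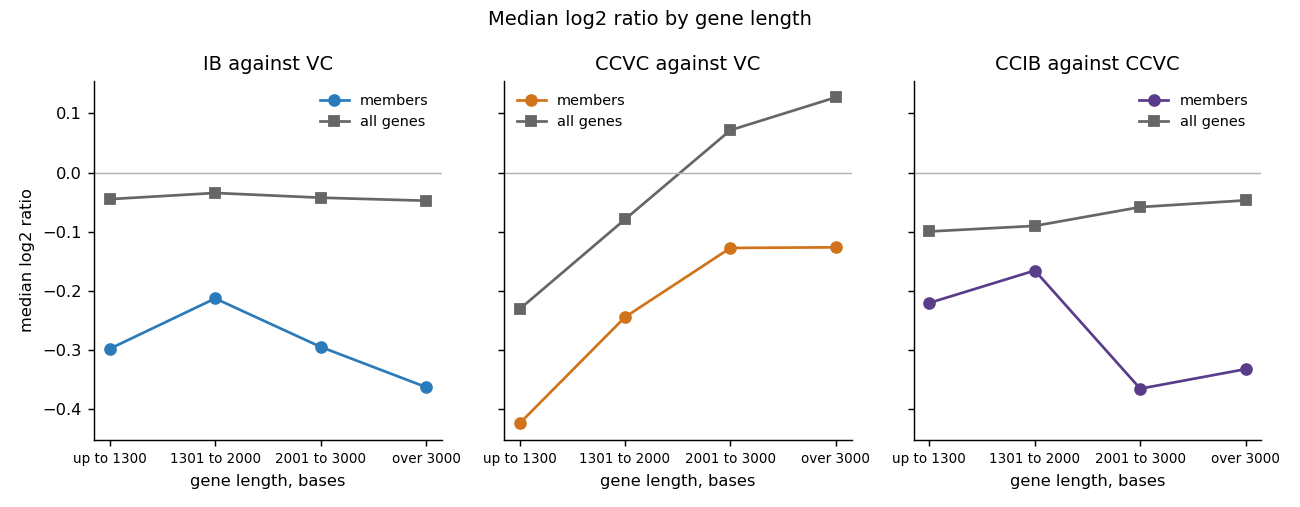
Median log2 ratio of (FPKM + 1) by gene length for members (coloured circles) and for all genes (grey squares) in the 3 comparisons. In CCVC against VC both lines climb with length, and the members lie below all genes in every class of all 3 panels.

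In cytokine-treated cells, few members differed by 1.5-fold with I-BET, among them cyclins D1, D2 and G1. Lower in CCIB than in CCVC were Ccnd1, Ccnd2, Ccng1, Cdkn1a, Mcm5, Orc5, Rbl2 and Cdc14a, and higher were Rrm2b and E2f5. These are 8 and 2 of 104 members (7.69% and 1.92%), against 11.6% lower and 3.4% higher over all genes. Scaling moved this split, to 3 lower and 4 higher with ratios centred on the median of all genes and to 4 lower and 3 higher with the groups scaled to 1 upper quartile. Of all 8795 genes, 826 were lower and 411 higher with the centring, and 892 lower and 366 higher with the upper quartile. Ccnd1, Ccnd2 and Ccng1 were lower and Rrm2b and E2f5 higher under both scalings. By any amount 78 members (75%) were lower, against 57.5% of all genes, with a median log2 ratio of -0.24 against -0.07. Cdc14a (-0.59) and Orc5 (-0.59) lay just inside the criterion and Plk3 (0.55) and Pola1 (-0.53) just outside.

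**Figure D3:**
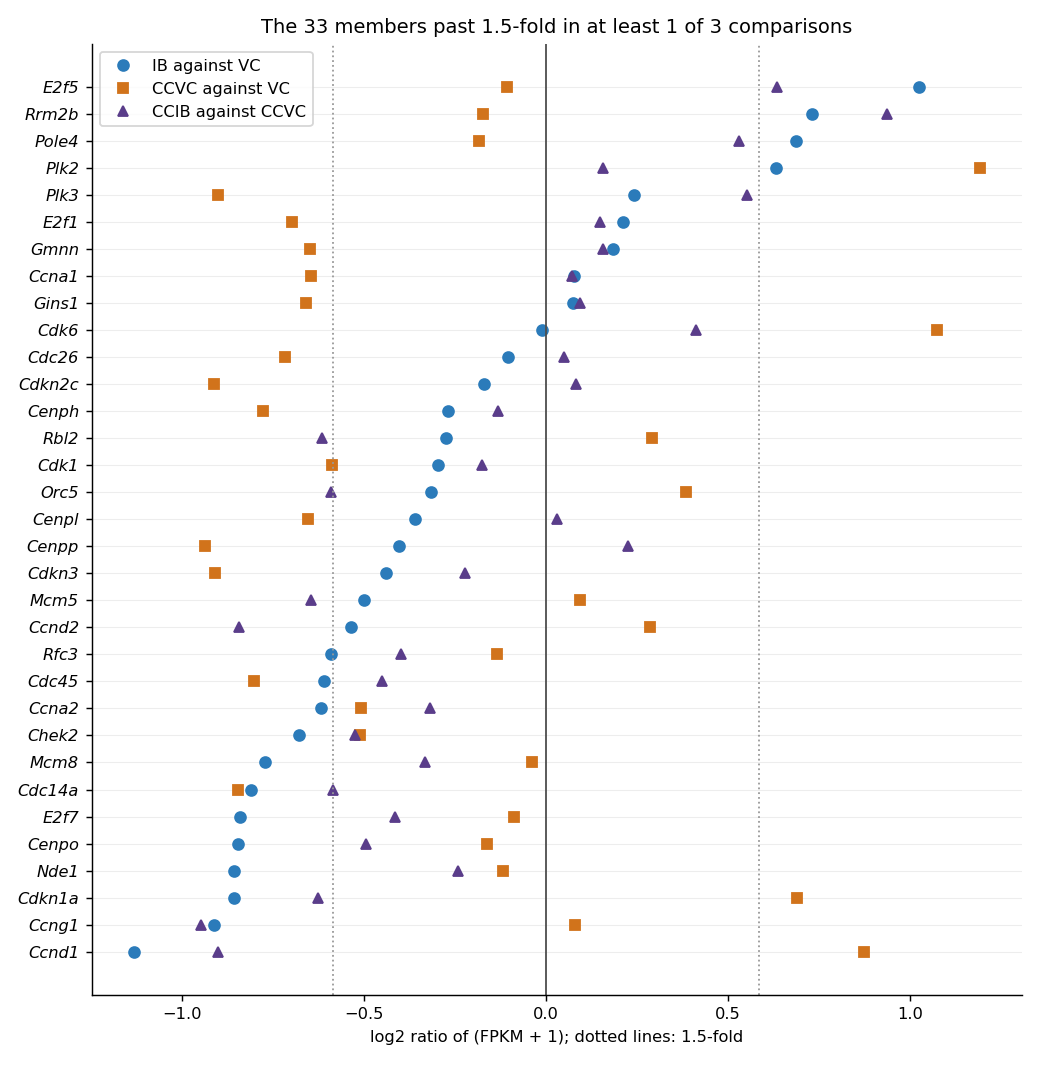
Log2 ratios of (FPKM + 1) for the 33 members past 1.5-fold in at least 1 of IB against VC (circles), CCVC against VC (squares) and CCIB against CCVC (triangles), ordered by IB against VC; dotted lines mark 1.5-fold. Circles and triangles lie on the same side of 0 for 28 of the 33 genes, among them Ccnd1 (-1.13 and -0.90) and E2f5 (1.02 and 0.63), while the squares scatter to both sides. The 33 were picked by these same ratios. Of all 8795 genes, 46.2% were lower in both I-BET comparisons and 34.5% higher in both, so a shared side was common in the whole table.

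The 2 I-BET comparisons share no group, and can be set side by side. Of the 12 members lower in IB than in VC, 4 were also lower in CCIB than in CCVC (Ccnd1, Ccng1, Cdc14a and Cdkn1a), which is 33.3% of the first list and 50% of the 8 members of the other. For all genes the overlap was 616, or 66.9% of 921 genes and 60.3% of 1022 genes, and 7.0% of all genes were lower in both. By any amount, 74 members (71.2%) were lower with I-BET in both settings, against 46.2% of all genes. The difference between the log2 ratios with and without cytokines had a median of 0.02 over members and -0.03 over all genes. In it 2 members reached 1.5-fold, against 4.86% of all genes. These were Cenpp (0.63) and Nde1 (0.62). Roles stood on both sides of 0 in this difference. The median was -0.11 for origin licensing and -0.01 for fork genes, against 0.28 for mitotic kinases, 0.16 for checkpoint genes and 0.15 for kinetochore genes.

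**Figure D4:**
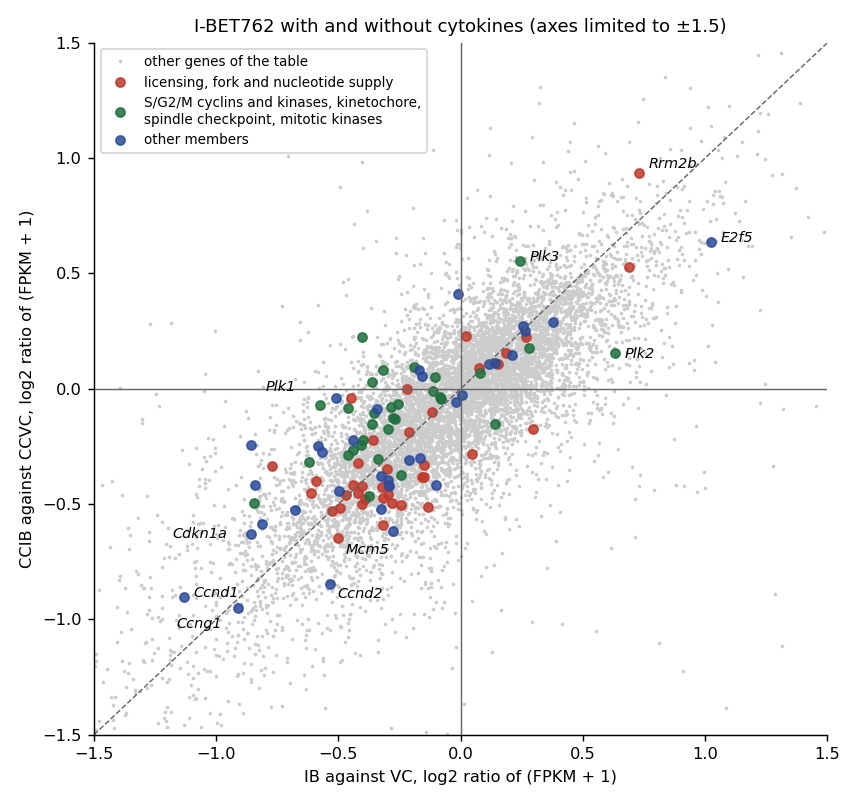
Log2 ratio of (FPKM + 1) of CCIB against CCVC (vertical) over that of IB against VC (horizontal) for licensing, fork and nucleotide genes (red), mitotic genes (green), other members (blue) and other genes of the table (grey); the dashed line marks equal ratios. Most members lie in the lower left, most green points lie above the dashed line, and Ccng1, Ccnd1 and Ccnd2 lie farthest down.

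Among the G1 cyclins, D1 and D2 were lower with I-BET, D2 past 1.5-fold in CCIB against CCVC alone, and D3 was not lower. Ccnd2, the D cyclin with the highest level here, was at 87.6 FPKM in CCIB, 158 in CCVC, 89.2 in IB and 129.8 in VC. The 2 I-BET groups lay close together and CCVC stood highest. Its log2 ratio was -0.54 in IB against VC and -0.85 in CCIB against CCVC. Ccnd1 was a minor form, at 2.84 FPKM in CCIB, 6.17 in CCVC, 0.787 in IB and 2.92 in VC, and CCIB and VC lay close together (log2 ratio -0.03). Its ratio was -1.13 with I-BET alone, 0.87 with cytokines and -0.90 with I-BET on top of them. Ccnd3 was at 32.8 FPKM in CCIB, 30.3 in CCVC, 46.8 in IB and 42.4 in VC, lower in both cytokine groups than in their counterparts without cytokines. Ccnd1 (ENSRNOG00000020918) lies on chromosome 1 from 224960136 to 224969658 and Ccnd2 (ENSRNOG00000019939) on chromosome 4 from 231905237 to 231927558, as deposited, in a build not given in the sources used here.

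Cyclin E, the partner of CDK2 at the start of S phase, was lower with I-BET in either setting, by less than 1.5-fold. Ccne1 was at 23.5 FPKM in CCIB, 34.1 in CCVC, 25.2 in IB and 31.9 in VC and Ccne2 at 18.9 FPKM in CCIB, 24.9 in CCVC, 23 in IB and 29.1 in VC. Of the G1 kinases, Cdk4 had the highest level, at 135 FPKM in CCIB, 138 in CCVC, 167 in IB and 166 in VC, with a log2 ratio of 0.00 in IB against VC. Cdk2 was at 10.1 FPKM in CCIB, 13.7 in CCVC, 16.7 in IB and 20.7 in VC and had its lowest level in CCIB, with a ratio of -0.97 against VC. Cdk6, the other partner of the D cyclins, was below 1 FPKM without cytokines and higher with them, at 3.82 FPKM in CCIB, 2.62 in CCVC, 0.707 in IB and 0.7203 in VC. The cytokine ratio of Cdk6 was 1.07 without I-BET and 1.496 with it, and CCIB stood above CCVC.

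The CDK inhibitors did not move together. Cdkn1a encodes p21, a target of p53 that inhibits CDK2, and was at 29.97 FPKM in CCIB, 46.9 in CCVC, 15.4 in IB and 28.7 in VC. I-BET went with less of it in both settings (-0.86 in IB against VC and -0.63 in CCIB against CCVC), and cytokines with more (0.69 for CCVC against VC, 0.92 for CCIB against IB). With ratios centred on the median of all genes, the value in CCIB against CCVC no longer reached 1.5-fold. Cdkn1b, which encodes p27, was the inhibitor with the highest level and was highest in CCIB and lowest in VC, at 124 FPKM in CCIB, 103 in CCVC, 90.2 in IB and 75.5 in VC, with a ratio of 0.71 in CCIB against VC. Cdkn2c, which encodes the CDK4 and CDK6 inhibitor p18, was at 15.4 FPKM in CCIB, 14.5 in CCVC, 24.9 in IB and 28.2 in VC, lower in both cytokine groups. Cdkn3, a phosphatase that acts on CDK2 and peaks in dividing cells, was also lower in the cytokine groups, and lowest in CCIB, at 28.1 FPKM in CCIB, 32.9 in CCVC, 46.03 in IB and 62.8 in VC, with a ratio of -1.13 in CCIB against VC. At 751 bases, Cdkn3 is among the shortest members.

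**Figure D5:**
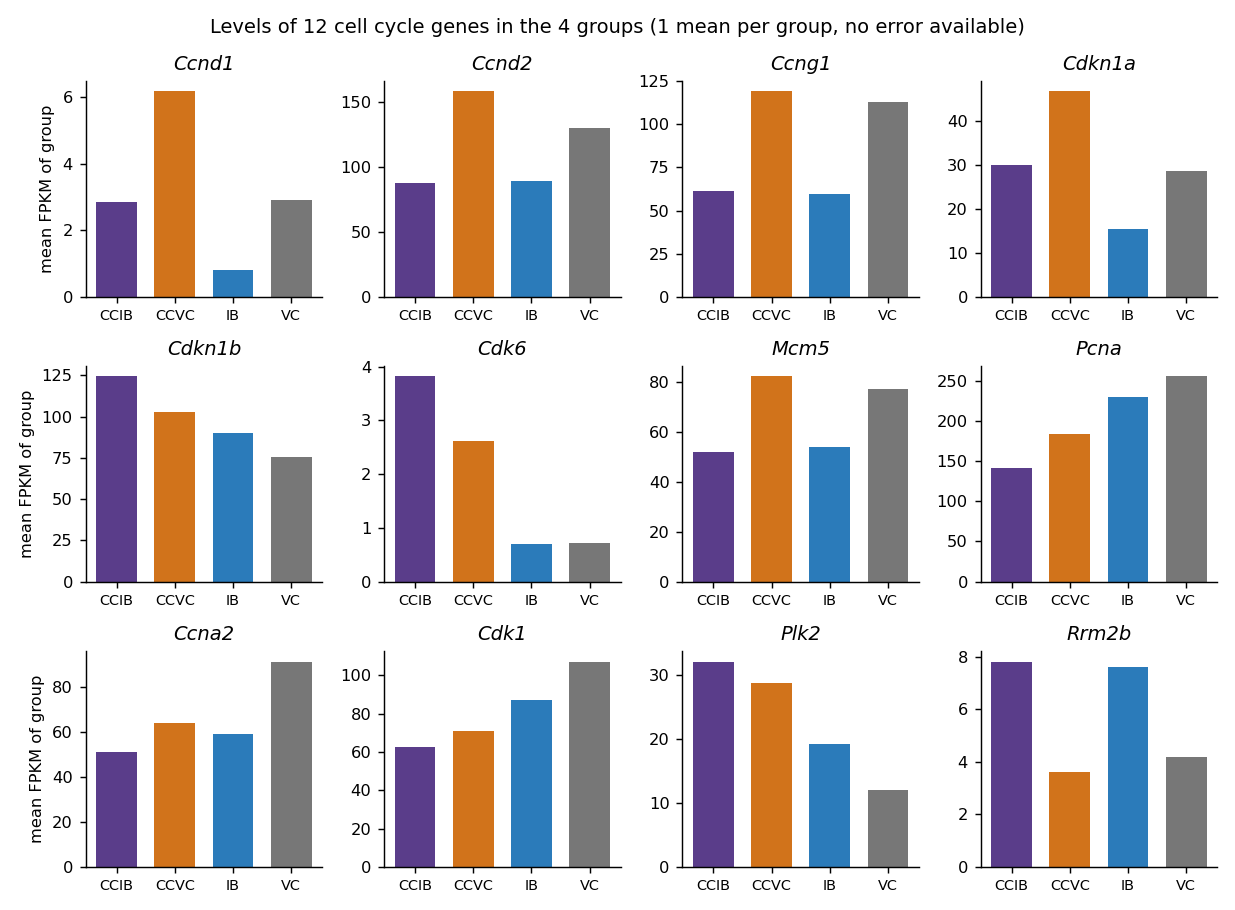
Mean FPKM of 12 members in CCIB, CCVC, IB and VC, as bars from 0 with 1 value per group and no error available. In Ccnd2, Ccng1 and Mcm5 the 2 I-BET groups are lower than their counterparts, in Cdk6 and Plk2 the 2 cytokine groups are higher, and in Pcna, Ccna2 and Cdk1 VC is the highest bar and CCIB the lowest.

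Cyclin G1, an atypical cyclin induced by p53, was lower with I-BET in both settings. Ccng1 was at 61.3 FPKM in CCIB, 119 in CCVC, 59.5 in IB and 113 in VC, about the same with and without cytokines, and its log2 ratio was -0.91 in IB against VC and -0.95 in CCIB against CCVC. Ccng2, a cyclin G of cells that leave the cycle, was at 21.6 FPKM in CCIB, 20.7 in CCVC, 12.5 in IB and 14.1 in VC, higher in both cytokine groups. Rrm2b, which encodes the p53-inducible small subunit of ribonucleotide reductase and supplies nucleotides outside S phase, differed in the opposite direction to Ccng1 and Cdkn1a. It was at 7.81 FPKM in CCIB, 3.605 in CCVC, 7.62 in IB and 4.196 in VC, with ratios of 0.73 in IB against VC and 0.94 in CCIB against CCVC. Known p53 targets among the members therefore stood on both sides of 0 with I-BET. Mdm2, a further p53 target outside the members and chosen after its values were seen, was at 30.8 FPKM in CCIB, 36.6 in CCVC, 24.5 in IB and 24.03 in VC.

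Among the E2F factors, E2f5 was the member past 1.5-fold higher with I-BET. E2f5, a factor that represses its targets together with pocket proteins, was at 9.35 FPKM in CCIB, 5.67 in CCVC, 13.6 in IB and 6.19 in VC, with ratios of 1.02 in IB against VC and 0.63 in CCIB against CCVC. E2f7 and E2f8, which are repressors induced late in G1, were lower with I-BET. E2f7 passed 1.5-fold in IB against VC (-0.84) and not in CCIB against CCVC (-0.42). It was at 9.598 FPKM in CCIB, 13.1 in CCVC, 7.39 in IB and 14.04 in VC. E2f8 was at 8.94 FPKM in CCIB, 12.5 in CCVC, 10.7 in IB and 15.5 in VC. The activator E2f1 was lower with cytokines, at 13.7 FPKM in CCIB, 12.3 in CCVC, 23.9 in IB and 20.6 in VC, and slightly higher with I-BET, while the activator E2f2 was at 7.81 FPKM in CCIB, 9.66 in CCVC, 6.91 in IB and 10.7 in VC. Of the pocket proteins, Rb1 was higher with cytokines (14.04 FPKM in CCIB, 14.7 in CCVC, 9.56 in IB and 9.703 in VC), and Rbl2, which encodes p130, was lower in CCIB than in CCVC (8.91 FPKM in CCIB, 14.2 in CCVC, 9.25 in IB and 11.4 in VC).

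Among origin licensing genes, the MCM helicase was lower with I-BET throughout. The helicase genes Mcm2 to Mcm7 were all lower in IB than in VC, with log2 ratios from -0.50 to -0.24, and all lower in CCIB than in CCVC, from -0.65 to -0.42. By any amount, 71.2% of all members and 46.2% of all genes were lower in both. The proteins of Mcm2 to Mcm7 form the ring that unwinds DNA at the fork. With cytokines alone their ratios ran from -0.36 to 0.09, on both sides of 0. Mcm5 was at 52.1 FPKM in CCIB, 82.1 in CCVC, 54.05 in IB and 76.96 in VC, Mcm6, the licensing gene with the highest mean, at 59.6 FPKM in CCIB, 84.9 in CCVC, 71.9 in IB and 85.3 in VC, and Mcm3 at 32.7 FPKM in CCIB, 47.3 in CCVC, 32.3 in IB and 45.8 in VC. In these 3 genes CCVC was close to VC and both I-BET groups were lower. Mcm2 was at 45.1 FPKM in CCIB, 63.2 in CCVC, 50.8 in IB and 66.9 in VC, again with both I-BET groups lower. Mcm4 (37.8 FPKM in CCIB, 53.7 in CCVC, 51.95 in IB and 69.1 in VC) and Mcm7 (44.9 FPKM in CCIB, 60.2 in CCVC, 60.2 in IB and 74.2 in VC) were lower with either agent and lowest with both. Of these 6, Mcm5 alone reached 1.5-fold in any single comparison of 1 agent, and Mcm4 and Mcm7 reached it in CCIB against VC (-0.85 and -0.71).

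The upstream sequences of Mcm2, Mcm5, Mcm6 and Mcm7 are shown because these genes differed together with I-BET and hold matches to E2F-type words. Mcm3 was lower with I-BET by a like amount (-0.49 in IB against VC and -0.52 in CCIB against CCVC). It held no E2F-type word in its window, and Mcm4 had no promoter entry. The 250 bases before the start are from RefSeq on build GRCr8, on the strand of the gene. Capitals mark the E2F-type words (the form TTCCCGC, the form TTGGCGC, the form TTCGCGC and the form TTGCCGC) and the CHR-type words (the form TTTGAA and the form TTCGAA), searched on both strands, where E2F-type words can overlap each other.
Mcm2, chr4:122918095-122918344, minus strand: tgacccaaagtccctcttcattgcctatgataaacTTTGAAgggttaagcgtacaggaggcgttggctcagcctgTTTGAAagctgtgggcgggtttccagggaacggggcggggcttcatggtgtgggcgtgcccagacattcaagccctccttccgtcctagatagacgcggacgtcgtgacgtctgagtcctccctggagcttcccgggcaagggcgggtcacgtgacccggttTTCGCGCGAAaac
Mcm5, chr19:13488563-13488812, plus strand: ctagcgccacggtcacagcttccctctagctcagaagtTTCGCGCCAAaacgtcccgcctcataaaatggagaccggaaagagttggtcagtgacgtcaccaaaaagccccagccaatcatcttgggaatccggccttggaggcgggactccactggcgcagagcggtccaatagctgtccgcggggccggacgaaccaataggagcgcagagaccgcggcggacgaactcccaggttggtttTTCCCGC
Mcm6, chr13:42404353-42404602, minus strand: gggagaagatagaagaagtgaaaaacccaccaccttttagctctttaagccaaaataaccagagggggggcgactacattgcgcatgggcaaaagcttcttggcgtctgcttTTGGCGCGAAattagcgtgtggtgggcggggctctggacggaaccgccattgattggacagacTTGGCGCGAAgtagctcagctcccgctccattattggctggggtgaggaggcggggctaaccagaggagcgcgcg
Mcm7, chr12:22163179-22163428, minus strand: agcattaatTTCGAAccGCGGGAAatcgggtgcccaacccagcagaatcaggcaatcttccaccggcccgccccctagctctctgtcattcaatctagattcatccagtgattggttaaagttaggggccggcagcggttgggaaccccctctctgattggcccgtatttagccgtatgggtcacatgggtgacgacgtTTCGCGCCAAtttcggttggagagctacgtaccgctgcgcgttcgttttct
In Mcm2 the E2F-type words overlap within the last 13 bases before the start, in Mcm5 1 of them ends at the start, and Mcm6 has 2 overlapping pairs. A match is a string of letters and not evidence of a bound factor.

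The remaining licensing genes were at lower levels. Of the MCM genes outside the ring, Mcm10 was at 3.51 FPKM in CCIB, 5.04 in CCVC, 4.03 in IB and 5.66 in VC, Mcm8, which acts in repair, at 1.796 FPKM in CCIB, 2.52 in CCVC, 1.12 in IB and 2.62 in VC, and Mcm9 at 5.803 FPKM in CCIB, 4.82 in CCVC, 5.77 in IB and 4.63 in VC, with Mcm9 higher with I-BET by less than 1.5-fold. Mcm3ap was between 13.7 and 17.5 FPKM in all groups. Of the ORC subunits, Orc6 was at 13.7 FPKM in CCIB, 19.5 in CCVC, 18.4 in IB and 23.2 in VC and Orc5 at 7.34 FPKM in CCIB, 11.6 in CCVC, 6.72 in IB and 8.62 in VC, both lower in the I-BET groups, with Orc5 highest in CCVC. Orc1, the largest subunit, was at 1.798 FPKM in CCIB, 2.995 in CCVC, 2.45 in IB and 2.79 in VC, while Orc2 and Orc3 stayed between 11.9 and 16.2 FPKM. Cdc6 was at 4.26 FPKM in CCIB, 5.86 in CCVC, 6.799 in IB and 7.71 in VC and Cdt1 at 11.4 FPKM in CCIB, 15.97 in CCVC, 11.7 in IB and 15.98 in VC. Gmnn, whose product geminin blocks relicensing by CDT1, had another order, at 17.4 FPKM in CCIB, 15.5 in CCVC, 28.4 in IB and 24.9 in VC, slightly higher with I-BET and lower with cytokines. Over the 18 genes placed here by symbol the median log2 ratio was -0.31 in IB against VC, -0.02 in CCVC against VC and, among cytokine-treated cells, -0.44 in CCIB against CCVC. In the last, 15 of 18 were lower by any amount, against 75% of all members and 57.5% of all genes. Without Mcm3ap, Mcm8 and Mcm9, left out after the values were seen, the medians were -0.32, -0.08 and -0.48.

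Of 17 replication fork genes, 2 were lower past 1.5-fold in IB than in VC (Cdc45 and Rfc3) and 1 was higher (Pole4), 2 were lower in CCVC than in VC (Cdc45 and Gins1), and none passed in CCIB against CCVC. In IB and in CCVC the lower share of 11.8% was near the background. Pcna, the sliding clamp and the member with the highest level, was at 141 FPKM in CCIB, 184 in CCVC, 229.8 in IB and 255 in VC, a log2 ratio of -0.47 with cytokines, -0.15 with I-BET and -0.85 with both. Cdc45, which joins the helicase at firing, showed the largest difference of the fork genes, at 6.03 FPKM in CCIB, 8.602 in CCVC, 9.97 in IB and 15.8 in VC (-1.25 in CCIB against VC). Pola1 and Pola2, subunits of the polymerase α that begins each strand, were at 24.2 FPKM in CCIB, 35.5 in CCVC, 30.5 in IB and 44.3 in VC for Pola1 and 12.3 FPKM in CCIB, 17.7 in CCVC, 18.6 in IB and 22.7 in VC for Pola2. Both genes were highest in VC and lowest in CCIB. Of the clamp loader genes, Rfc3 was at 35.97 FPKM in CCIB, 47.7 in CCVC, 34.5 in IB and 52.5 in VC, Rfc4 at 29.3 FPKM in CCIB, 31.4 in CCVC, 40.7 in IB and 44.2 in VC and Rfc5 at 46.6 FPKM in CCIB, 53.3 in CCVC, 56.98 in IB and 66.2 in VC, with Rfc3 lower mainly with I-BET and Rfc4 mainly with cytokines. Gins1 (11.3 FPKM in CCIB, 10.6 in CCVC, 18.3 in IB and 17.3 in VC) and Gins3 (8.01 FPKM in CCIB, 8.03 in CCVC, 9.65 in IB and 11.4 in VC) were lower with cytokines. Prim1, the catalytic primase subunit, was at 149.7 FPKM in CCIB, 139 in CCVC, 188 in IB and 169 in VC, slightly higher with I-BET, and Prim2 at 6.81 FPKM in CCIB, 8.93 in CCVC, 8.41 in IB and 10.6 in VC.

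Among the polymerase accessory genes, Pole4, a histone-fold subunit of polymerase ε, was higher with I-BET, at 11.3 FPKM in CCIB, 7.54 in CCVC, 14.6 in IB and 8.71 in VC, whereas its partner Pole3 was at 18.1 FPKM in CCIB, 24.7 in CCVC, 20.5 in IB and 25.9 in VC. Pold3 was at 21.4 FPKM in CCIB, 27.02 in CCVC, 19.96 in IB and 27.1 in VC and Pold4 at 4.82 FPKM in CCIB, 6.99 in CCVC, 6.64 in IB and 8.39 in VC. Topoisomerase genes differed by form, with Top2a, which is made in cycling cells, at 100.5 FPKM in CCIB, 103 in CCVC, 96.5 in IB and 132 in VC and Top2b, which is made also in resting cells, at 85.1 FPKM in CCIB, 104 in CCVC, 98.8 in IB and 95.6 in VC. Top2a was highest in VC and alike in the other 3 groups. The suppliers of nucleotides for S phase differed with I-BET by less than 1.5-fold, with Rrm1 at 95.99 FPKM in CCIB, 128 in CCVC, 103 in IB and 140.3 in VC, Rrm2 at 46.1 FPKM in CCIB, 53.9 in CCVC, 56.9 in IB and 73.3 in VC and Tyms, which makes thymidylate, at 27.6 FPKM in CCIB, 38.3 in CCVC, 31.3 in IB and 43.8 in VC. Over the 17 fork genes the median log2 ratio was -0.28 in IB against VC, -0.31 in CCVC against VC and, among cytokine-treated cells, -0.32 in CCIB against CCVC. By any amount, 16 of 17 were lower in CCVC than in VC, against 76.9% of all members and 50.3% of all genes.

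Few mitotic genes passed 1.5-fold with I-BET alone. In IB against VC, Ccna2 and Cenpo were lower and Plk2 was higher, among 4 cyclin and kinase genes of S, G2 and M phase, 6 aurora and polo kinases, 7 checkpoint genes and 14 kinetochore genes. In CCVC against VC, 7 of them were lower and Plk2 was higher, and in CCIB against CCVC none passed. Over all genes, 10.5% were lower and 4.96% higher in IB against VC. The shares were 10.2% and 13.9% in CCVC against VC, and 11.6% and 3.4% in CCIB against CCVC. Cdk1, the kinase that starts mitosis, was at 62.7 FPKM in CCIB, 70.9 in CCVC, 87.03 in IB and 107 in VC. Ccna2, its partner from S phase on, was at 50.98 FPKM in CCIB, 63.8 in CCVC, 59.1 in IB and 91.3 in VC, with log2 ratios of -0.62 in IB against VC, -0.51 in CCVC against VC and, among cytokine-treated cells, -0.32 in CCIB against CCVC. Ccnb2 was at 18.4 FPKM in CCIB, 19.4 in CCVC, 20.7 in IB and 25.4 in VC. Ccna1, known from germ cells, was at 2.303 FPKM in CCIB, 2.15 in CCVC, 4.19 in IB and 3.92 in VC, with a difference by cytokines only. Of the mitotic kinases, Aurka was at 14.9 FPKM in CCIB, 16.1 in CCVC, 16.6 in IB and 21.5 in VC, Aurkb at 40.2 FPKM in CCIB, 42.7 in CCVC, 43.9 in IB and 60.8 in VC and Plk1 at 32.1 FPKM in CCIB, 33.7 in CCVC, 30.4 in IB and 45.8 in VC. The 3 treated groups lay close together in all of them, below VC. For Plk1 the log2 ratio was -0.58 in IB against VC and -0.07 in CCIB against CCVC, a difference of 0.51. Plk4, which starts centriole copying, was at 13.5 FPKM in CCIB, 15.9 in CCVC, 14.9 in IB and 19.9 in VC.

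Plk2 and Plk3, polo kinases of stress responses, went their own ways. Plk2 was at 32.1 FPKM in CCIB, 28.7 in CCVC, 19.2 in IB and 12.02 in VC, higher in IB (0.63) and in CCVC (1.19) than in VC. Plk3 was at 11.8 FPKM in CCIB, 7.74 in CCVC, 18.3 in IB and 15.3 in VC, lower with cytokines (-0.90) and higher in the I-BET groups than in their counterparts. Over the 6 kinase genes the median was -0.38 in IB against VC, -0.41 in CCVC against VC and, among cytokine-treated cells, -0.08 in CCIB against CCVC.

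Of the spindle checkpoint and anaphase genes, Cdc26 alone passed 1.5-fold in a comparison of 1 agent. It made up 14.3% of the 7 genes in CCVC against VC, where 10.2% of all genes were lower. Cdc20, which activates the anaphase-promoting complex, was at 35 FPKM in CCIB, 42.3 in CCVC, 42.3 in IB and 57.7 in VC and Bub1b, which restrains it until chromosomes are attached, at 16.8 FPKM in CCIB, 18.8 in CCVC, 20.5 in IB and 26.7 in VC. Mad2l1, the checkpoint gene with the highest level, was at 53.6 FPKM in CCIB, 58.6 in CCVC, 57.3 in IB and 69.7 in VC, its partner Mad2l1bp at 7.75 FPKM in CCIB, 9.796 in CCVC, 10.4 in IB and 13.5 in VC and Bub1 at 22.5 FPKM in CCIB, 20.9 in CCVC, 23.4 in IB and 26.9 in VC. Of the subunits of the complex, Cdc26 was lower with cytokines (12.2 FPKM in CCIB, 11.8 in CCVC, 18.5 in IB and 20.02 in VC) and Cdc27 higher by less than 1.5-fold (41 FPKM in CCIB, 42.1 in CCVC, 29.9 in IB and 31.8 in VC). All 7 genes of the group were lower by any amount in IB than in VC and 6 of 7 in CCVC than in VC, and the medians were -0.28 and -0.42, against -0.12 in CCIB against CCVC. Of all members, 78.8% were lower by any amount in IB and 76.9% in CCVC, and of all genes 54.3% and 50.3%.

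For comparison with the helicase genes, the upstream sequences of Cdk1, Cdc20 and the proliferation marker Mki67 are given as examples with the same marks. These genes were lower in all 3 treated groups than in VC, as were others such as Plk1 and Aurka. The 3 examples all hold CHR-type words, which most such genes did not. Among members with a promoter entry, 2 of 7 checkpoint genes held a CHR-type word, and 0 of 5 mitotic kinases held a word of either type.
Cdk1, chr20:19265043-19265292, plus strand: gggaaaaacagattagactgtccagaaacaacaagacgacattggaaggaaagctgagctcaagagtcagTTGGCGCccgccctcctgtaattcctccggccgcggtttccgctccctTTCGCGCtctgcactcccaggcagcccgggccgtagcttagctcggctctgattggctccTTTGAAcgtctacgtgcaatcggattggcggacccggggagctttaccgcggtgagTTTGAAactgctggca
Mki67, chr1:199952594-199952843, minus strand: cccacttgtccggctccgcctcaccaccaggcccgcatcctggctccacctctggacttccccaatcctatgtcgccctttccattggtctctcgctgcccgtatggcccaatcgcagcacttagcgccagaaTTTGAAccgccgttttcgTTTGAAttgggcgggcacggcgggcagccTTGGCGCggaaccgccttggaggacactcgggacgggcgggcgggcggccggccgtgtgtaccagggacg
Cdc20, chr5:137255800-137255919, minus strand: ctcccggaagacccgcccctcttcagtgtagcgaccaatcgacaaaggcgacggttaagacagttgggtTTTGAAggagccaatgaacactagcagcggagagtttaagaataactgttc
Cdk1 and Mki67 each hold words of both types in the 250 bases, and Cdc20, of which the last 120 bases are printed, holds 1 CHR-type word and no E2F-type word of this search.

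Kinetochore and centromere genes made up 14 members, of which 13 (92.9%) were lower by any amount in CCVC than in VC, against 50.3% of all genes. By the 1.5-fold criterion 21.4% of the 14 were lower there, against 10.2% of all genes. Cenpb, which binds centromeric repeats and had the highest level, was at 69.3 FPKM in CCIB, 61.2 in CCVC, 83.3 in IB and 68.4 in VC and was slightly higher with I-BET. Those past 1.5-fold with cytokines were Cenph (18.2 FPKM in CCIB, 19.99 in CCVC, 28.9 in IB and 35.02 in VC), Cenpl (3.91 FPKM in CCIB, 3.81 in CCVC, 4.901 in IB and 6.58 in VC) and Cenpp (3.31 FPKM in CCIB, 2.69 in CCVC, 4.34 in IB and 6.06 in VC), all of the inner kinetochore, and Cenpo (8.39 FPKM in CCIB, 12.2 in CCVC, 7.24 in IB and 13.8 in VC) was lower with I-BET. Cenpw was at 13.3 FPKM in CCIB, 14.9 in CCVC, 24.4 in IB and 22.1 in VC and Cenpm at 24.1 FPKM in CCIB, 24.3 in CCVC, 31.6 in IB and 34.3 in VC, lower in the cytokine groups. Cenpf, a large outer protein of dividing cells, was at 21.6 FPKM in CCIB, 20.3 in CCVC, 20.9 in IB and 26.3 in VC, and Cenpu at 9.46 FPKM in CCIB, 13.4 in CCVC, 11.4 in IB and 15.1 in VC. Cenpc, Cenpt, Cenpi and Cenpk lay between 4.24 and 20.8 FPKM with VC highest in each, while Cenpj, a centriole gene, was higher with cytokines (7.41 FPKM in CCIB, 7.66 in CCVC, 5.802 in IB and 6.2 in VC). The median of the group was -0.29 in IB against VC, -0.35 in CCVC against VC and, among cytokine-treated cells, -0.10 in CCIB against CCVC.

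The 8 CDK phosphatases, checkpoint kinases and other division genes were all lower by any amount with I-BET, with cytokines or without. In both settings 71.2% of all members and 46.2% of all genes were lower by any amount. Chek2, a kinase that answers DNA breaks, was at 7.41 FPKM in CCIB, 11.1 in CCVC, 9.76 in IB and 16.2 in VC and Chek1, which answers stalled forks, at 13.9 FPKM in CCIB, 18.99 in CCVC, 13.7 in IB and 17.01 in VC. Wee1, which holds CDK1 inactive, was higher with cytokines, at 34.8 FPKM in CCIB, 37.1 in CCVC, 21.9 in IB and 28.1 in VC, and Cdc25b, the phosphatase that opposes it, was at 32.96 FPKM in CCIB, 33.9 in CCVC, 26.2 in IB and 37.7 in VC. Cdc14a was lower with either agent, at 1.49 FPKM in CCIB, 2.73 in CCVC, 2.83 in IB and 5.71 in VC, the lowest ratio of any member in CCIB against VC (-1.43), and Cdc14b was at 6.68 FPKM in CCIB, 9.26 in CCVC, 8.66 in IB and 9.36 in VC. Nde1, a dynein partner of the spindle, was at 3.33 FPKM in CCIB, 4.12 in CCVC, 2.07 in IB and 4.57 in VC, and the ubiquitin-conjugating gene Cdc34, the highest of these, at 44.1 FPKM in CCIB, 54.5 in CCVC, 55.1 in IB and 62.04 in VC. Members of known roles outside the cycle had medians on the other side of 0 with I-BET (0.19 and 0.18, 4 genes). Cdkn2aipnl, the highest of them, was at 61.5 FPKM in CCIB, 51.6 in CCVC, 70.02 in IB and 58.2 in VC, Cdkn2aip at 19.2 FPKM in CCIB, 15.5 in CCVC, 15.4 in IB and 11.6 in VC, Cdc5l at 46.5 FPKM in CCIB, 43.1 in CCVC, 50.4 in IB and 46.4 in VC, Cdc123 at 14.3 FPKM in CCIB, 17.98 in CCVC, 18.1 in IB and 21.1 in VC and Prima1, below the minimum, at 0.749 FPKM in CCIB, 2.14 in CCVC, 0.0386 in IB and 0.147 in VC.

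With both agents together, 33 members (31.7%) were lower in CCIB than in VC and 5 (4.81%) were higher, against 21.0% and 13.7% of all genes. The lower ones were Pcna, Cdk1, Cdk2, Ccna2, Ccne2, Ccng1, Aurkb, Bub1b, Cdc20, Cdc26, Cdc6, Cdc45, Cdc14a, Chek2, Cdkn2c, Cdkn3, E2f8, Mcm4, Mcm7, Orc6, Pola1, Pola2, Pold4, Rrm2, Tyms, Mad2l1bp and 7 Cenp genes (h, i, l, o, p, u and w). Cdk6, Cdkn1b, Cdkn2aip, Plk2 and Rrm2b were higher. The median log2 ratio was -0.50 for members and -0.06 for all genes, and 85 members (81.7%) were lower by any amount, against 52.5%. With ratios set within gene length classes the median was -0.39, with 27 members lower and 6 higher, against 1541 and 1418 of all 8795 genes. Of the 38 members past 1.5-fold, 23 kept their call there and 15 lost it, namely Aurkb, Cdc20, Cdc26, Cdk1, Mad2l1bp, Orc6, Pcna, Pold4, Rrm2, Tyms and Cenp genes h, o, p, u and w, while 10 others newly passed. In CCIB against IB, the cytokine comparison under I-BET, 13 members were lower and 6 higher, against 12.9% each way over all genes. Within length classes 6 of 104 members were lower and 7 higher, against 767 and 1311 of all 8795 genes. By any amount 73 members (70.2%) were lower in CCIB than in IB, against 52.9% of all genes. The 6 higher ones as deposited were Ccnd1, Cdk6, Cdkn1a, Plk2, Ccng2 and Wee1. Of the 14 members lower in CCVC than in VC, 10 were also lower in CCIB than in IB, 71.4% of that list and 76.9% of the 13, against 73.6% and 58.2% for all genes. Within length classes 4 members were lower in both (Cdc14a, Cdk2, E2f1 and Plk3), 36.4% of 11 and 66.7% of 6, against 63.0% and 65.8% for all genes.

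A list of other cell cycle genes with different names, chosen with earlier results of these data known, had medians below those of all genes in the 3 comparisons. Of 145 such genes, 112 had a row and Dbf4 had 2, and all 113 rows were above the minimum. Their median log2 ratio was -0.34 in IB against VC, -0.25 in CCVC against VC and, among cytokine-treated cells, -0.15 in CCIB against CCVC. Members were at -0.30, -0.22 and -0.24, so the list was less far below 0 with I-BET under cytokines. The I-BET log2 ratio with cytokines minus that without had a median of 0.16 in the list, with 92 of 113 rows above 0. For members it was 0.02, with 55 of 104 above 0, and for all genes -0.03, with 3864 of 8795 above 0. By any amount, 103 of 113 rows (91.2%) were lower in IB than in VC, against 78.8% of members and 54.3% of all genes. By the 1.5-fold criterion 10 were lower and 0 higher in IB, namely Anln, Dbf4, Espl1, Gtse1, Lin9, Pbk, Psrc1, Tfdp2, Tk1 and Trip13, or 8.85% against 10.5% of all genes lower. The call for Dbf4 holds for 1 of its rows (ENSRNOG00000008513, log2 ratio -0.78), and the other (ENSRNOG00000050482) was at 0.09. Tk1, the thymidine kinase of S phase, was at 75.8 FPKM in CCIB, 115 in CCVC, 85.01 in IB and 135 in VC, Lin9, a subunit of the complex that turns on mitotic genes, at 12.9 FPKM in CCIB, 20.97 in CCVC, 14.7 in IB and 28.1 in VC, and Gtse1 at 25.01 FPKM in CCIB, 38.4 in CCVC, 22.03 in IB and 38.5 in VC. In CCVC 9 were lower than in VC (Cdca3, Cks1b, Dut, Kif22, Mis12, Rpa3, Spc24, Spc25 and Ube2t), or 7.96% against 10.2% of all genes, among them Dut, which keeps uracil out of DNA, at 78.4 FPKM in CCIB, 95.03 in CCVC, 119 in IB and 145 in VC. Racgap1, a regulator of cytokinesis, was the 1 that was higher (0.885% against 13.9% of all genes), at 18.9 FPKM in CCIB, 13.2 in CCVC, 2.35 in IB and 2.99 in VC, although other cytokinesis genes such as Anln were not (24.7 FPKM in CCIB, 29.6 in CCVC, 25.5 in IB and 41.9 in VC). In CCIB, Cdca7, Gtse1, Lin9, Mtbp and Tk1 were below CCVC by the criterion (4.42%, with 11.6% over the whole table), and Fbxw7, a ubiquitin ligase subunit that removes cyclin E and MYC, was higher (19.2 FPKM in CCIB, 11.8 in CCVC, 17.3 in IB and 11.99 in VC). Myc itself, a driver of G1 genes known to respond to BET inhibitors, was at 48.4 FPKM in CCIB, 86.7 in CCVC, 8.64 in IB and 24.4 in VC, lower with I-BET and higher with cytokines, as Ccnd1 was.

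Promoters were at hand for 86 of the 105 members, and 85 of these passed the minimum. E2F-type words stood in the 250 bases before the start in 25 of 85 members (29.4%), against 14.6% of 6331 genes of the deposited table and 7.97% of all 27457 promoters. CHR-type words were in 17 of 85 (20%), against 10.8% and 17.3%, the CCAAT word in 45.9%, against 34.9% and 34.3%, and the E-box word CACGTG in 3.53%, against 8.55% and 5.79%. By role, 8 of 14 licensing genes held an E2F-type word and 0 of 5 mitotic kinases did. The 25 members with an E2F-type word had a median log2 ratio of -0.30 in IB against VC and -0.40 in CCIB against CCVC, and the 60 without had -0.28 and -0.17. All 17 members with a CHR-type word were lower by any amount in both I-BET comparisons, with medians of -0.44 and -0.24, against -0.26 and -0.18 for the 68 without. Of those 68, 49 were lower in IB than in VC and 46 in CCIB than in CCVC. Lower in both were 71.2% of the 104 members and 46.2% of all genes. The shares and ratios by word rest on letters in short windows and were not tested. The promoter table had no entry for Aurkb, Ccna2, Ccnd1, Ccnd2, Ccne2, Cdc6, Cdk6, Cenpt, Chek2, E2f1, E2f2, E2f5, E2f8, Mcm3ap, Mcm4, Orc1, Rrm2, Rrm2b and Wee1.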

How the data were processed

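INS-1 libraries were prepared and sequenced by the authors, who aligned the reads with HISAT2 and calculated gene levels as FPKM. DESeq2 was used by the authors, per the processing notes of the submitters, and versions, the counting tool and the genome build are not given in the sources used here. The authors deposited 1 table with a mean FPKM per group for 9694 genes called at an adjusted p under 0.05. For 1752 genes of the table whose library values were at hand in a shortened supplement, the CCIB and CCVC columns were within 0.1% of the mean of those libraries. Library values from that supplement served this check alone and entered no result.

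Ratios were computed from the group columns after adding 1 FPKM, for 8795 genes, those averaging 1 FPKM or more over the groups. The members and lists were chosen with earlier results of these data known. Named were members past 1.5-fold in any of 5 comparisons, the highest member of each role, genes of the other list past 1.5-fold in the 3 main comparisons, Mki67, Myc and markers; further members are given for completeness, and Mdm2 was chosen after its values were seen. Words in promoters were searched in RefSeq sequences of GRCr8, 1 promoter per symbol. Alternatives were a pseudocount of 0.1 FPKM, no minimum, a minimum of 5 FPKM, centring on the median of all genes, scaling to 1 upper quartile, a looser criterion of 0.32 on the log2 scale and a stricter one of 2-fold, and leaving out members of roles outside the cycle, with centring by gene length added after the data were seen. The calculation was tested on simulated group means. Python 3.11.15, numpy 2.4.6, pandas 2.3.3 and matplotlib 3.10.9 were used.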

Additional observations from a re-analysis of the deposited data

How the results depend on the processing

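No paired analysis was possible because the deposited table holds 1 mean per group, and leaving out single libraries was not run, since no library value of a supplement was used. Of 60 counts of members recomputed under the alternatives, 40 stayed within 1.5 times the deposited setting and 20 did not. The counts follow the fold criterion by construction. In IB against VC, the 4 higher and 12 lower members became 1 and 1 at 2-fold, and the 12 became 46 at the looser criterion. In CCVC against VC, the 4 higher and 14 lower became 2 and 0 at 2-fold and 11 and 40 at the looser criterion, and the higher were 2 with a minimum of 5 FPKM, which drops Ccnd1 and Cdk6. Over all genes, 524 were higher and 229 lower at 2-fold, and 2343 and 2249 at the looser criterion. In CCIB against CCVC, the 2 higher and 8 lower became 0 and 0 at 2-fold and 5 and 41 at the looser criterion, 4 and 3 with centring on the median of all genes, 4 and 4 with centring by gene length, and the lower were 4 with scaling to 1 upper quartile. Over all genes, 52 were higher and 291 lower at 2-fold, and 1055 and 2373 at the looser criterion. They were 411 and 826 with centring on the median and 417 and 806 with centring by gene length, and 892 were lower with the upper quartile. In CCIB against VC, the 5 higher and 33 lower became 2 and 4 at 2-fold, where 515 of all genes were higher and 685 lower. In CCIB against IB, the 13 lower became 6 with centring by gene length, while the lower of all genes went from 1138 to 767. The median ratio of members stayed negative in all of these settings, from -0.31 to -0.25 in IB against VC, -0.24 to -0.20 in CCVC against VC and -0.26 to -0.17 in CCIB against CCVC, and it moved by over 0.1 only in CCIB against VC, to -0.39 with centring by gene length. Spread and depth are not given here, and differences in single genes were not set against error.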
